A study of Rattus norvegicus with 18 samples.

Results

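The major histocompatibility complex (MHC) class II genes of the rat were followed in the dorsal hippocampus of 18 adult male Sprague Dawley rats, an outbred stock. They were chosen by name as the 6 genes Cd74, RT1-Da, RT1-Db1, RT1-Ba, RT1-Bb and Ciita among the 38445 genes of the count files by their membership of the pathway, with no threshold on a measured value. All rats were fed a Lieber-DeCarli liquid diet. The 6 control rats had the control diet, the 6 ethanol rats had 9% v/v ethanol in the diet for 16 days and were taken at 0 h of withdrawal, and the 6 withdrawal rats had 15 days of 9% ethanol diet and then 24 h of control diet. The paper states that the days at 9% followed a stepwise introduction at lower percentages, and that rats were pair fed. The comparisons address which genes differ in the hippocampus on chronic alcohol and during withdrawal from it.

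MHC class II molecules display peptides from engulfed material to CD4-positive T cells. Each molecule pairs an alpha with a beta chain. The rat has the D molecule (chains RT1-Da and RT1-Db1) and the B molecule (chains RT1-Ba and RT1-Bb), the counterparts of human HLA-DR and HLA-DQ. The invariant chain Cd74 holds new molecules until they reach the compartment where peptide is loaded, and Ciita, a coactivator that does not bind DNA itself, switches on the whole group, often under interferon-gamma. In the healthy brain the molecules are known mainly from macrophages at the vessels, meninges and choroid plexus, and microglia can gain them on activation.

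In the coordinates of Rnor_6.0, the build of the count files, the chain genes lie close together on chromosome 20: RT1-Bb at chr20:4043726-4049367 (+), RT1-Ba at chr20:4066133-4070726 (-), RT1-Db1 at chr20:4087621-4097190 (+) and RT1-Da at chr20:4127644-4132616 (-). Cd74 lies at chr18:56071420-56080851 (+) and Ciita at chr10:5212621-5260641 (-). No exon base of the 6 genes is shared with another gene on the same strand in this annotation. The chains resemble other genes of the complex, however, and read pairs that map to several places were not counted.

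Class II promoters are known for an X box, bound by the RFX complex, followed downstream by an inverted CCAAT box (Y box), bound by NF-Y. Together they carry Ciita. RefSeq promoter windows of 300 bases (build GRCr8, a different build from that of the counts, used here for sequence only) were found for 5 of the 6 genes, not for Ciita. They were searched on both strands for the Y box letters CCAAT and for the X box core GCAACNG. They were also searched for this core with the inverted Y box, ATTGG, starting 15 to 35 bases further on, and for TTCNNNGAA, the gamma-activated site of interferon-responsive genes. The stretches below show this layout. They end just before the outermost annotated start of the gene, and capitals mark the core and the inverted CCAAT that follows it or, in Cd74 and RT1-Bb, where the core was not matched, CCAAT on either strand. They cover chr18:56526956-56527070 (+) for Cd74, chr20:4515193-4515392 (+) for RT1-Da, chr20:4560183-4560382 (-) for RT1-Db1, chr20:4576857-4577056 (+) for RT1-Ba and chr20:4604119-4604318 (-) for RT1-Bb.
RT1-Da: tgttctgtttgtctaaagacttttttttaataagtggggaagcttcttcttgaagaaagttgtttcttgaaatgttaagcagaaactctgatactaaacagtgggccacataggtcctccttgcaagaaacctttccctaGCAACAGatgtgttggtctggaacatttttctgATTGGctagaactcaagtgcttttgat
RT1-Db1: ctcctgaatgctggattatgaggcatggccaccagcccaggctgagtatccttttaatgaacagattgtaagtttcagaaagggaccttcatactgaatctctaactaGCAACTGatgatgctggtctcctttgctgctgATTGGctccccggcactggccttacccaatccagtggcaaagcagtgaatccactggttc
RT1-Ba: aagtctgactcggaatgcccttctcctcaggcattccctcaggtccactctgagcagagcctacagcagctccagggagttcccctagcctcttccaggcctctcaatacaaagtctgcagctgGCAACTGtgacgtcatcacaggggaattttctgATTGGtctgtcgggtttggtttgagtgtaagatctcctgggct
RT1-Bb: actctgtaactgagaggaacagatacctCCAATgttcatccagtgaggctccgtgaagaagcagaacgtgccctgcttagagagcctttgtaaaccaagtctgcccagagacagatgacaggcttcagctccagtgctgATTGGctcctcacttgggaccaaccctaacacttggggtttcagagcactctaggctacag
Cd74: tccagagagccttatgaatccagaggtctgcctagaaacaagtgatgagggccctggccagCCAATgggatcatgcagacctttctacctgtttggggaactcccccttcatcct
CCAAT stood in all 5 windows, against 37.5% of all 33469 windows of this length, and GCAACNG in 3, against 12.2%. RT1-Db1 held CCAAT on the other strand as well. The core and inverted CCAAT stood together in RT1-Da, RT1-Db1 and RT1-Ba, with steps of 33, 32 and 33 bases from start to start, and in 90 of all windows (0.269%). RT1-DOb, RT1-Db2 and RT1-Ha, other class II chain genes, were also among those 90. TTCNNNGAA was in none of the 5 windows, against 8.87% of all. A match is a match of letters and says nothing of binding.

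The gene counts of a rat summed to 30873228 at the lowest and 42679748 at the highest. They were scaled by the trimmed mean of M values (TMM) and expressed as CPM (counts relative to library size). The 17853 genes that passed 0.5 CPM in 1 rat or more entered a limma-voom model of the 18 rats with 3 surrogate variables, which are estimates of unnamed variation. A gene was called at q < 0.1 after Benjamini-Hochberg adjustment. Of the 6 class II genes 5 were tested, and Ciita, whose highest value was 0.492 CPM, was below the filter. By the indexes in the file names, the 6 control libraries carried a first index of their own, the 6 ethanol and 2 withdrawal libraries shared a second, and 4 withdrawal libraries had another, so index and treatment cannot be told apart in comparisons with the control rats. Withdrawal rats 4 and 5 stood apart in tissue markers, with 781 and 756 counts of Ttr (choroid plexus) against 31889 to 193223 in the other rats, and withdrawal rat 5 had 12708 counts of Col1a1 (meningeal fibroblasts) against 542 to 1784 and the fewest of Prox1 (hippocampal neurons), 1967 against 2241 to 6084. Ethanol rat 1 had 19960 counts of Prkcd, a thalamus marker, against 1355 to 11693.

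All 6 genes were detected in every rat, at low levels. Per kilobase of exon, Cd74 was the highest at 11.6 ± 3.13 CPM per kb (SD, n = 18), followed by RT1-Da at 4.59 ± 1.26, RT1-Ba at 3.22 ± 0.891 and RT1-Db1 at 2.95 ± 0.740 CPM per kb. RT1-Bb had a median of 1.73 CPM per kb, with a range of 0.632 to 11.7. Ciita was the lowest at 0.0385 ± 0.0118 CPM per kb, which rested on 3 to 20 counts per rat. Cd74 was above RT1-Da in 18 of 18 rats and RT1-Da above RT1-Ba in 17, whereas RT1-Ba was above RT1-Db1 in only 10 of 18, so that the order of these neighbours was not set. RT1-Db1 was above RT1-Bb in 16 of 18 rats. By comparison, the class I gene RT1-A1 stood at 19.8 ± 6.42 CPM per kb.

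The rest of the class II region was at few or no counts. RT1-DMb, a chain of the DM molecule that loads peptide, was listed at 0 counts in all 18 rats, which over the summed libraries allows up to 0.00459 CPM of counted reads (3 counts, counting error only), and RT1-DMa, its partner, had 2 counts in all. RT1-DOa had 0 to 6 counts per rat, RT1-Ha 0 to 5 and RT1-Db2 0 to 4. A count of 0 in these files is no bound on expression, since Col1a2 and Ogn were also at 0 in all 18 rats beside the counts of Col1a1 given above, and the part of the annotation and of unique mapping was not tested. RT1-DOb, the beta chain of the DM inhibitor DO, had 6 to 48 counts and was the only other class II gene tested.

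The treatments did not separate any of the 6 genes. None of the 5 tested genes was called in withdrawal against control, where 5.41% of all genes tested were called, in ethanol against control, where 0.493% were, or in withdrawal against ethanol, where 2.72% were. Their lowest q values were 0.316, 0.668 and 0.227 in the same order, and 0, 0 and 1 of the 5 had an unadjusted p under 0.05. For none of the 6 genes, in no comparison, did all rats of one group lie beyond all rats of the other. Of all genes tested, 1.07%, 1.39% and 1.2% were so separated in the same order of comparisons. The exact permutation tests of mean log2(CPM + 0.1), 6 rats against 6, gave no p under 0.05 in 18 tests. The lowest was 0.0628 (two-sided, adjusted p = 0.460), against a smallest possible p of 0.00216.

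**Figure D1:**
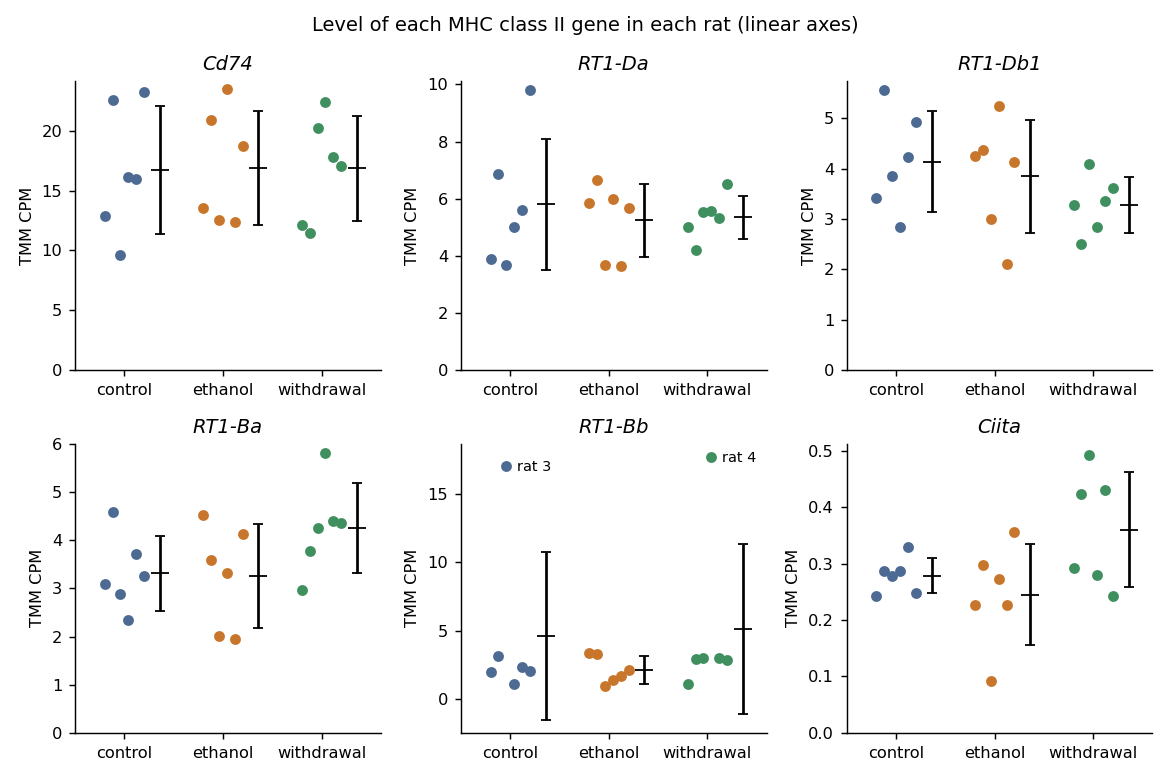
TMM CPM (linear axes) of each class II gene in each rat, by treatment, with points for the 6 rats of a group and a bar for their mean ± SD. The groups overlap in every panel, and RT1-Bb stands at 17.1 CPM in control rat 3 and 17.7 CPM in withdrawal rat 4 against 0.958 to 3.37 CPM in the other rats.

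Cd74, the most abundant of the 6, spread widely within each group and hardly at all between them. Its lowest, median and highest values were 9.65, 16.1 and 23.2 CPM in control rats, 12.3, 16.1 and 23.5 CPM in ethanol rats and 11.5, 17.4 and 22.4 CPM in withdrawal rats. The group means were 16.7 ± 5.34, 16.9 ± 4.77 and 16.9 ± 4.36 CPM (SD, n = 6 each). The rats of all 3 groups covered nearly the same range. The log2 fold change by limma-voom was 0.0098 (SE 0.24, q = 0.989) in withdrawal against control, and the 95% interval of the fold change ran from 0.712 to 1.42. In ethanol against control it was 0.041 (SE 0.25, q = 0.969), with an interval of 0.709- to 1.49-fold. In withdrawal against ethanol it was -0.031 (SE 0.27, q = 0.972), with an interval of 0.664- to 1.44-fold. Changes in the mean of Cd74 beyond these bounds lie outside the intervals, and smaller ones were not detectable with this spread.

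RT1-Da, the D alpha chain, had its highest value in a control rat. It ran from 3.67 through a median of 5.31 to 9.81 CPM in control rats, from 3.63 through 5.76 to 6.67 CPM in ethanol rats and from 4.22 through 5.44 to 6.51 CPM in withdrawal rats. The 6 withdrawal rats were the closest to each other, with a coefficient of variation of 14.1% against 39.3% in control rats, a difference in spread that was not tested. The log2 fold changes by limma-voom were -0.038 in withdrawal against control (SE 0.21, q = 0.944), -0.23 in ethanol against control (SE 0.23, q = 0.733) and 0.19 in withdrawal against ethanol (SE 0.24, q = 0.732). The respective intervals were 0.717- to 1.32-fold, 0.607- to 1.20-fold and 0.801- to 1.63-fold.

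RT1-Db1, the D beta chain, had its lowest mean in the withdrawal rats. The values were 2.84, 4.04 and 5.56 CPM (lowest, median, highest) in control rats, 2.10, 4.19 and 5.25 CPM in ethanol rats and 2.497, 3.32 and 4.09 CPM in withdrawal rats. All but 1 withdrawal rat lay within the range of the control rats. The log2 fold change in withdrawal against control was -0.32 (SE 0.18, p = 0.0993, q = 0.349 by limma-voom), with an interval of 0.616- to 1.05-fold, and the exact permutation test gave p = 0.108 (adjusted p = 0.460, n = 6 and 6). It was -0.23 in ethanol against control (q = 0.668 by limma-voom, 0.639- to 1.13-fold) and -0.083 in withdrawal against ethanol (q = 0.881 by limma-voom, 0.694- to 1.28-fold).

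RT1-Ba, the B alpha chain, had its highest mean in the withdrawal rats. It ran from 2.33 through a median of 3.17 to 4.59 CPM in control rats, from 1.96 through 3.46 to 4.53 CPM in ethanol rats and from 2.96 through 4.31 to 5.81 CPM in withdrawal rats. A single withdrawal rat, rat 4, lay above all control and ethanol rats. The log2 fold change in withdrawal against ethanol was 0.54 (SE 0.22), with an interval of 1.05- to 2.01-fold and an unadjusted p = 0.0255, which did not hold after adjustment (q = 0.227 by limma-voom). The exact permutation test of the same rats gave p = 0.128 (adjusted p = 0.460, n = 6 and 6). In the 8 rats that shared an index (6 ethanol, 2 withdrawal) the log2 fold change was 0.12 (q = 0.942 by limma-voom without surrogate variables). Against control, the log2 fold change was 0.35 in withdrawal (SE 0.19, q = 0.316, 0.967- to 1.69-fold) and -0.19 in ethanol (SE 0.22, q = 0.781, 0.636- to 1.21-fold) by limma-voom.

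Ciita was compared only in a fit without a filter on low counts. Its values were 0.242, 0.283 and 0.330 CPM (lowest, median, highest) in control rats, 0.0927, 0.250 and 0.356 CPM in ethanol rats and 0.242, 0.358 and 0.492 CPM in withdrawal rats. At 3 to 20 counts per rat the counting error is a large part of this spread. The log2 fold changes were 0.30 in withdrawal against control (q = 0.690 by limma-voom, 0.808- to 1.88-fold), -0.26 in ethanol against control (q = 0.873 by limma-voom, 0.516- to 1.35-fold) and 0.56 in withdrawal against ethanol (q = 0.529 by limma-voom, 0.904- to 2.40-fold). The lowest of the exact permutation p values, 0.0628, belonged to this last comparison.

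**Figure D2:**
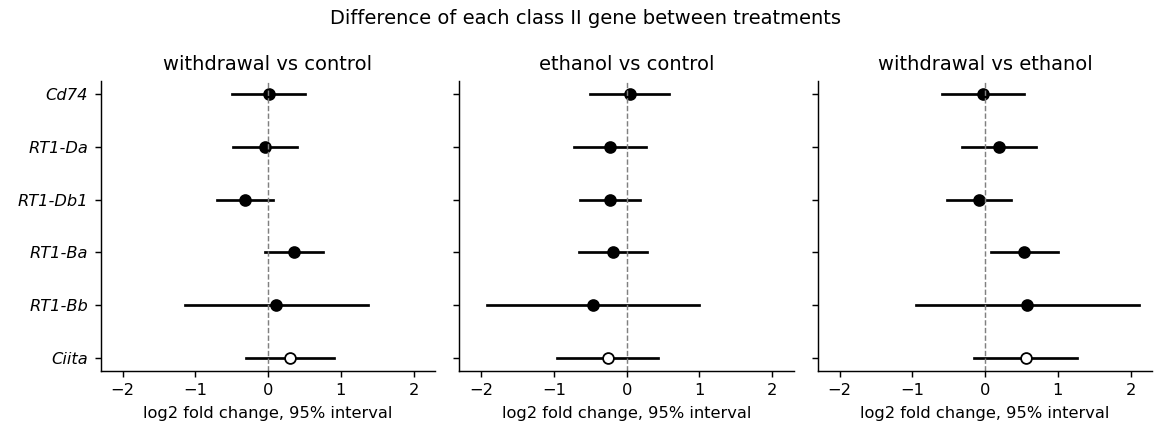
Log2 fold change of each class II gene (points) with its 95% interval (lines) in the 3 comparisons, by limma-voom with 3 surrogate variables, filled for the 5 tested genes and open for Ciita, fitted without a filter. Every interval crosses 0 except that of RT1-Ba in withdrawal against ethanol (q = 0.227), and those of RT1-Bb are the widest.

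RT1-Bb, the B beta chain, split the rats in a way that the treatments did not. It stood at 17.1 CPM (674 counts) in control rat 3 and at 17.7 CPM (635 counts) in withdrawal rat 4. The other control rats had 2.00, 3.13, 1.05, 2.36 and 2.04 CPM, the ethanol rats 3.37, 3.27, 0.958, 1.39, 1.65 and 2.11 CPM and the other withdrawal rats 1.07, 2.92, 2.98, 3.01 and 2.88 CPM. The 2 high rats, 1 on control diet and 1 in withdrawal, were thus over 5 times as high as any of the other 16. With them the SE of its log2 fold change was 0.59 in withdrawal against control, with a log2 fold change of 0.12 (q = 0.939 by limma-voom, 0.455- to 2.58-fold), where RT1-Ba had an SE of 0.19. It was -0.47 in ethanol against control (SE 0.69, q = 0.833) and 0.58 in withdrawal against ethanol (SE 0.73, q = 0.730) by limma-voom. Without the 2 rats, a choice made after the values were seen, the log2 fold changes were 0.39 (q = 0.599), -0.18 (q = 0.900) and 0.57 (q = 0.442) in the same order, again by limma-voom, and none of the 5 genes was called.

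The 2 rats did not stand apart in the same way in the partner chain. RT1-Ba was at 2.58 CPM per kb in control rat 3 and at 5.19 CPM per kb in withdrawal rat 4, the highest of all rats. The ratio of RT1-Ba to RT1-Bb, both per kilobase, was 0.229 and 0.443 in these rats and between 1.49 and 3.73 in the other 16 (2.28 ± 0.632, SD, n = 16). The beta chain was hence above the alpha chain in these 2 rats alone. The log2 levels of RT1-Ba and RT1-Bb had a Pearson r of 0.55 and a Spearman rho of 0.70 over all 18 rats, and 0.82 and 0.85 over the other 16, given as a description of rats that share a normalization.

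Another gene of the complex, RT1-A1 (chr20:5414463-5418012), a classical class I gene, was also highest in these 2 rats, at 50.6 CPM in control rat 3 and 57.0 CPM in withdrawal rat 4 against 20.5 to 43.4 CPM in the others. It was 1 of 111 tested genes in which both rats were above all 16 others, 8 of them by more than 1.5-fold in the mean, and in 153 genes both were below all others, 72 of them by more than 1.5-fold. Of the 111, RT1-Bb had the largest log2 difference, 2.89, ahead of 1.03 for the next gene. No other tested gene with an RT1 name was among the 111 or the 153. Of other genes lying between RT1 genes, Rps2-ps1 (chr20:3159476-3160204) was above in both rats, with a log2 difference of 0.901. GeneID108353237 (chr20:5351621-5354278), a gene without a name, was below in both, with a log2 difference of -1.47. These genes were chosen after their values were seen. The RT1 genes are known to differ between rat strains in sequence, the stock is outbred and reads were aligned to the genome of 1 inbred strain. How near the alleles of each rat are to that genome was not measured here.

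**Figure D3:**
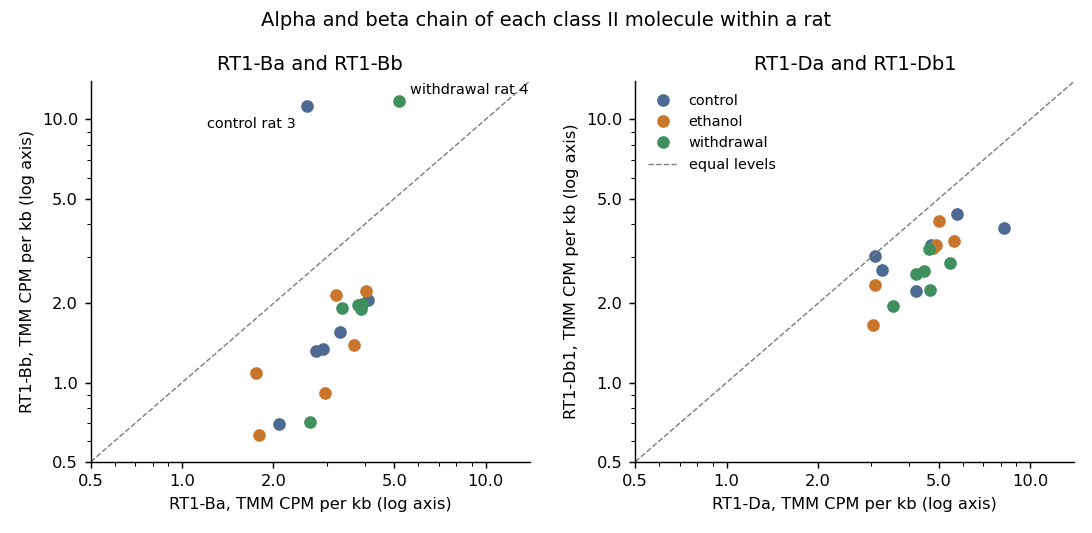
Level per kilobase (TMM CPM per kb, log axes) of RT1-Bb against RT1-Ba (left) and of RT1-Db1 against RT1-Da (right), each point 1 rat, coloured by treatment, with a dashed line of equal levels. Control rat 3 and withdrawal rat 4 lie above the line on the left, where the other 16 rats have 1.49 to 3.73 times as much alpha as beta chain.

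The D chains and Cd74 kept narrower ratios. RT1-Da to RT1-Db1, per kilobase, was 1.49 ± 0.422 in control, 1.49 ± 0.225 in ethanol and 1.76 ± 0.225 in withdrawal rats (SD, n = 6 each), from 1.02 to 2.12 over all 18. Cd74 to the sum of both alpha chains was 1.47 ± 0.200, 1.63 ± 0.332 and 1.38 ± 0.205. The sum of the D chains to that of the B chains was 1.73 ± 0.818, 1.81 ± 0.407 and 1.24 ± 0.529, and the lowest values, 0.408 and 0.441, were those of withdrawal rat 4 and control rat 3. Without these it ranged from 1.04 to 2.85 in 16 rats. Alpha chain counts thus exceeded those of their beta chain per kilobase in all rats for the D molecule and in 16 of 18 for the B molecule.

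Rat by rat, the levels of Cd74 and the D chains moved together. In log2(CPM + 0.1) over 18 rats, as a description, Cd74 and RT1-Da had a Pearson r of 0.81 (Spearman rho 0.81), which was 0.82 with the group means removed and 0.76 without the 2 rats farthest from the median of Cd74. Of the 15143 other genes above 1 CPM on average, RT1-Da was the one most like Cd74. RT1-Db1 was 17th with an r of 0.57 (rho 0.63) and RT1-Ba 55th with an r of 0.52 (rho 0.48). With group and index means removed these were 0.83, 0.61 and 0.49. RT1-Bb had an r of 0.018 with Cd74 (rho 0.16) and Ciita, at its few counts, an r of 0.24. Over the 16 rats without those high in RT1-Bb, the r with Cd74 was 0.80 for RT1-Da, 0.80 for RT1-Db1, 0.44 for RT1-Ba, 0.30 for RT1-Bb and 0.28 for Ciita.

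Of genes outside the group, the 10 most like Cd74 included Cspg4, GeneID108348218, Uty, Wtip, GeneID102555598, Pdgfc, Ccdc124, Oxld1 and Zfp526, the GeneID entries being genes without a name. Their r ran from 0.73 for Cspg4 (rho 0.79), the NG2 proteoglycan of oligodendrocyte precursors and pericytes, to 0.60 for Zfp526. All lie below the r of RT1-Da and above those of RT1-Db1 (0.57) and RT1-Ba (0.52). With the group means removed, 8 of the 10 were again among the 10 highest. None is a microglia or macrophage marker of the lists used here.

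Markers of the cells that could carry class II molecules were measured beside them, and their counts of called genes stand against the 5.41%, 0.493% and 2.72% of all genes called in withdrawal against control, ethanol against control and withdrawal against ethanol. The summed level of 12 microglia markers ranged from 339.5 to 404 CPM in control, 345 to 388 CPM in ethanol and 323 to 409 CPM in withdrawal rats, and 2 of them, the complement genes C1qb and C1qc, rose in withdrawal against control (log2 fold changes of 0.38 for each, q = 0.0198 and 0.0910 by limma-voom), C1qb also in withdrawal against ethanol (0.35, q = 0.0475). The macrophage list, with Cd163, Mrc1 and Lyve1 of perivascular cells, had 0 called genes of 7 tested and summed to 23.9 to 28.5, 24.3 to 37.5 and 18.6 to 35.5 CPM. The r of Cd74 with the defining markers was 0.20 for Aif1, -0.17 for P2ry12, 0.18 for Tmem119, 0.049 for Cx3cr1, -0.13 for Cd163, -0.21 for Mrc1 and -0.080 for Lyve1. Of the B cell list, Cd79a had at most 6 counts and Cr2 was at 0.115 to 3.00 CPM (median 21 counts). Of the dendritic cell list Flt3 had 478 to 1099 counts and Zbtb46 216 to 318, whereas Xcr1 had at most 4, Clec9a at most 9 and Cd209a 0 in all rats. Cd3e of T cells had 10 to 487 counts beside 37 to 73 of Lck and at most 5 of Cd3d, and S100a9 of neutrophils had at most 19, beside 39 to 120 of Cd14 and 7 to 46 of Plac8 in the same list. No gene of the dendritic, B, T, monocyte, choroid plexus, fibroblast and thalamus lists was called in any comparison. All 4 blood genes were lower than in control in both other groups, with log2 fold changes between -1.36 and -1.64 (limma-voom q of 0.0195 to 0.0834), Pecam1 and Flt1 of the endothelium rose in withdrawal against control and Prox1 of hippocampal neurons fell there (log2 fold change of -0.26, limma-voom q = 0.0968), with q = 0.146 without withdrawal rat 5. Without surrogate variables the limma-voom q of C1qb, C1qc, Pecam1, Flt1 and Prox1 in withdrawal against control was 0.152, 0.296, 0.205, 0.265 and 0.385. The part of these markers in the class II values was not tested. In tissue RNA, fewer cells of a type and less RNA per cell cannot be told apart.

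The rest of the pathway was described by lists of genes, by counts and medians beside those of all genes tested, whose median log2 fold change was 0.0003 in withdrawal against control, 0.00046 in ethanol against control and -0.00024 in withdrawal against ethanol. The shares of all genes called, 5.41%, 0.493% and 2.72% in the same order, stand beside each count of called genes that follows. Of the class II chains and chaperones, 11 of 12 listed genes were in the files and 6 were tested, with 0 called. The median log2 fold change was 0.062 in withdrawal against control, -0.21 in ethanol against control and 0.37 in withdrawal against ethanol. The first of these was -0.062 with edgeR, -0.064 with DESeq2, -0.024 without a filter (10 genes), -0.087 with the replicate block and surrogate variables, and 0.27 with 5 surrogate variables. With single rats left out it ran from -0.064 to 0.19, below 0 without control rats 4 or 5 or withdrawal rats 3, 4 or 6. The last was -0.11 in the 8 rats with a shared index, -0.058 without a filter, 0.18 without ethanol rat 3 and 0.56 without ethanol rat 2, whereas the median in ethanol against control was negative under every setting run. RT1-DOb averaged 0.561 ± 0.285, 0.579 ± 0.317 and 0.800 ± 0.273 CPM in control, ethanol and withdrawal rats, with a log2 fold change in withdrawal against control of 0.62 (SE 0.43, q = 0.455 by limma-voom).

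Of the transcription factors of class II promoters, 6 of 8 were tested and 1 was called, in withdrawal against control, where 5.41% of all genes were. Without surrogate variables the list had 2 calls instead, Nfyb and Creb1 in withdrawal against ethanol (log2 fold changes of 0.22 and 0.23, limma-voom q = 0.0670 and 0.0684). Nfyb, a subunit of NF-Y and the highest of the list at 14.3 ± 1.44 CPM per kb, rose in withdrawal against control from 43.7 ± 1.12 to 50.8 ± 4.66 CPM (log2 fold change of 0.18 with SE 0.047, limma-voom q = 0.0559). Of the interferon-gamma list, 10 of 11 were tested, with a median log2 fold change of 0.091 in withdrawal against control. Only Irf1, a transcription factor induced by interferons, was called there, with 9.86 ± 1.75 CPM in withdrawal rats against 7.94 ± 0.799 CPM in control (log2 fold change of 0.30 with SE 0.093, limma-voom q = 0.0919). The kinase Jak1 was the highest of this list at 27.6 ± 2.07 CPM per kb.

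Of the genes for processing and turnover, 10 of 11 were tested. The protease gene Ctsl rose in withdrawal against control from 109 ± 4.15 to 124 ± 14.3 CPM (log2 fold change of 0.22 with SE 0.042, limma-voom q = 0.0218), and Ctsb, another cathepsin, was the highest at 232 ± 9.82 CPM per kb. Of the 7 genes for co-stimulation and T cell contact, all tested, Cd4, the coreceptor that binds class II molecules, fell from 9.61 ± 1.49 to 6.69 ± 0.977 CPM (log2 fold change of -0.47 with SE 0.13, limma-voom q = 0.0683), and Icoslg was the highest at 5.33 ± 0.394 CPM per kb. No gene of these 6 lists was called in ethanol against control by limma-voom with 3 surrogate variables. DESeq2 with 3 surrogate variables called 1 gene of the interferon-gamma list there, where it called 473 of all 17853 genes.

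Class I molecules, which present peptides from inside the cell and do not depend on Ciita, served as the nearest list for comparison. Of 18 genes listed, 16 were tested, and 0 were called in withdrawal against control. In withdrawal against ethanol, where 2.72% of all genes were called, 2 of the 16 were. B2m, the shared light chain, was at 306 ± 15.7 and 274 ± 20.95 CPM (log2 fold change of 0.19 with SE 0.049, limma-voom q = 0.0732), and Nlrc5, the class I counterpart of Ciita, at 3.52 ± 0.851 and 2.94 ± 0.883 CPM (log2 fold change of 0.57 with SE 0.16, limma-voom q = 0.0895). The median log2 fold change of the list was 0.066, -0.046 and 0.20 in the order withdrawal against control, ethanol against control and withdrawal against ethanol, the last being 0.077 in the 8 rats with a shared index. Calr, a chaperone of class I molecules, was the highest at 217 ± 15.6 CPM per kb.

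The calls of Nfyb, Irf1, Ctsl, Cd4, B2m and Nlrc5 rested on the surrogate variables. Without them, the q of Nfyb, Irf1, Ctsl and Cd4 in withdrawal against control was 0.163, 0.276, 0.306 and 0.144, and that of B2m and Nlrc5 in withdrawal against ethanol was 0.110 and 0.411 by limma-voom. The log2 fold changes were then 0.21, 0.28, 0.17 and -0.50 for the first 4 genes and 0.16 and 0.28 for B2m and Nlrc5, so that among these only that of Nlrc5 (0.57 with surrogate variables) moved by over 1.5 times. With 5 surrogate variables Nfyb, Irf1 and Cd4 lost their calls as well (q = 0.188, 0.265 and 0.261). With 2, Irf1, B2m and Nlrc5 lost theirs (limma-voom q = 0.164, 0.125 and 0.124). The same genes lost them with the replicate block and 3 surrogate variables (limma-voom q = 0.113, 0.210 and 0.196). When each of the 18 rats was left out in turn, Ctsl lost its call without withdrawal rat 6 (q = 0.127). Nfyb lost it without control rat 3 (q = 0.131), withdrawal rat 3 (q = 0.101) or withdrawal rat 6 (q = 0.129). B2m lost it without ethanol rats 2 or 3 or withdrawal rats 3 or 6, with q from 0.117 to 0.378. Cd4 lost it without control rats 1, 2, 4 or 6 or withdrawal rats 1 or 6, with q from 0.108 to 0.230. Irf1 lost it in 10 of 18 fits, without any control rat, ethanol rats 3 or 6 or withdrawal rats 1 or 6 (q from 0.104 to 0.226), and Nlrc5 in 12, without any rat but control rat 6, ethanol rats 4, 5 and 6 and withdrawal rats 2 and 4 (q from 0.105 to 0.458). In the 8 rats with a shared index, the log2 fold changes of B2m and Nlrc5 were 0.077 and 0.15 by limma-voom without surrogate variables.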

How the data were processed

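RNA-Seq of 18 rats (6 per treatment) was analysed from 1 file per rat. Per the labels and the paper's methods, libraries were stranded mRNA, read pairs were aligned with STAR 2.5.2a to Rnor_6.0, and the authors deposited the raw counts that featureCounts 1.5.0 gave for each gene, by strand over exons, without pairs that mapped to several places (FastQC 0.11.4 and R 3.3.3 are also named). Gene names came from the GRCr8 RefSeq table by gene ID (29322 of 38445 genes). Counts were scaled by TMM (edgeR 4.0.16), genes at or below 0.5 CPM in every rat were dropped, sva 3.50.0 gave 3 surrogate variables from log2 CPM (prior count 2), and limma 3.58.1 (voom) was fitted to all rats in R 4.3.3, with Benjamini-Hochberg adjustment within each comparison. The methods do not state the number of surrogate variables, and 3 was taken from earlier work on these files. Intervals are 95%. Exact permutation tests were two-sided, on log2(CPM + 0.1), with adjustment over 18 tests. Correlations and motif counts carry no test. Other tools were scipy 1.17.1, numpy 2.4.6, matplotlib 3.10.9 and pandas 2.3.3 in Python 3.11.15. The fit was tested on simulated data.

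The members, taken by name, and the lists were chosen with earlier results of these data known. Named genes were the 6 members, called or most abundant genes of 6 pathway lists, the 10 genes most like Cd74 and 14 defining markers, of which 3 genes are not reported here. C1qb, C1qc, Pecam1, Flt1, Prox1, RT1-A1, RT1-DOb and the rows near 0 were added after their values were seen. Replicates come from different animals, and the 45 pairs of rats within groups differed by more than sampling noise (chi-square per degree of freedom of at least 5.44). Same-numbered rats of different groups did not deviate together (r from -0.32 to 0.38 in 18 pairs). The paper states that rats were pair fed, and these correlations cannot show whether the numbers follow that pairing. Alternatives were 0, 2 or 5 surrogate variables, edgeR's quasi-likelihood test, DESeq2 1.42.0, quality weights, other scalings and filters, only the groups compared, a replicate block, rats of the second index and leaving out each rat. Intervals and limits cover the spread or counting error of these libraries only.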

Additional observations from a re-analysis of the deposited data

Results flagged for a closer look

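A single rat stood far from the other 5 of its group in 4 cases. RT1-Bb was at 17.1 CPM in control rat 3 and at 17.7 CPM in withdrawal rat 4, each the highest of its group, with Dixon ratios of 0.871 and 0.883 against a critical value that chance passes in about 1 of 20 groups. The ratio of RT1-Ba to RT1-Bb per kilobase was lowest in control rat 3, at 0.229. RT1-A1, looked at only because of these rats, was highest in control rat 3, at 50.6 CPM, with a Dixon ratio of 0.671. The check was run in every group for each class II gene, RT1-A1 and the chain ratios given above, so some flags would arise by chance. The flags rest on the same 2 rats and are not independent of each other.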

How the results depend on the processing

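In each of the 3 comparisons 0 of the 5 tested genes had q < 0.1 by limma-voom, and the count was 0 under every alternative run: 0, 2 or 5 surrogate variables, edgeR's quasi-likelihood test with and without them, DESeq2, quality weights, DESeq2 size factors, library totals, a stricter filter, no filter (6 genes tested), only the groups compared, the replicate block, rats of the second index and each rat left out. Ciita was fitted only without a filter. Of all genes, by contrast, 965, 88 and 486 were called in withdrawal against control, ethanol against control and withdrawal against ethanol, and 41, 50 and 621 without surrogate variables, 1624, 473 and 1176 with DESeq2, 1132, 440 and 1073 with quality weights, 262, 322 and 871 with 5 surrogate variables, 594, 71 and 260 with 2, 486, 9 and 166 without a filter, 33, 62 and 682 with edgeR without them, 0, 55 and 0 in only the groups compared, and 460, 13 and 543 without control rat 3 and withdrawal rat 4. With the replicate block 0, 0 and 14 genes were called without and 914, 26 and 1 with surrogate variables, and no class II gene was called in either. Same-numbered rats did not deviate together (median r -0.073 in 18 pairs, 0.035 in 90 others).

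Of 500 values of single genes under an alternative, 42 changed sign, all of genes that were not called, and the cause was not tested. Cd74 in withdrawal against control (0.0098) was -0.033 with edgeR and -0.038 with DESeq2 (both with surrogate variables), -0.0077 with library totals, -0.0075 without a filter, -0.0054 and -0.045 with the replicate block without and with surrogate variables, and -0.25 without control rat 3 and withdrawal rat 4, where in ethanol against control (0.041) it was -0.15. In withdrawal against ethanol (-0.031) it was 0.023 with 5 surrogate variables and 0.018 with quality weights. RT1-Bb in withdrawal against control (0.12) was -0.53 with edgeR, -0.51 with DESeq2 and -0.40 with the replicate block, all with surrogate variables. In the rats of the second index, withdrawal against ethanol was -0.17 for RT1-Da and -0.040 for RT1-Bb. When rats were left out one at a time, the log2 fold changes in withdrawal against control ran from -0.18 to 0.15 for Cd74, -0.18 to 0.13 for RT1-Da and -0.30 (without withdrawal rat 4) to 0.79 (without control rat 3) for RT1-Bb, in ethanol against control from -0.11 to 0.21 for Cd74, -0.33 to 0.016 for RT1-Ba and -0.88 to 0.025 for RT1-Bb, and in withdrawal against ethanol from -0.18 to 0.14 for Cd74 and -0.27 to 0.037 for RT1-Db1. RT1-Ba in withdrawal against ethanol stayed positive under every alternative, from 0.12 to 0.71, with q from 0.175 to 0.942. Precision is limited by the spread between rats for the chains, and depth limits Ciita.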
